A study of Homo sapiens with 4 samples.

Results

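The genes examined here are 38 genes of DNA replication and S phase, a list of named factors that was sorted by role and not by any measured value. The list was chosen, however, with earlier results of these data known. All 38 had reads in every sample, and all 38 were among the 16416 genes tested, out of 57905 genes counted. RNA was sequenced from U87MG, an established human glioblastoma (GBM) line given as wild type and at passages 8 to 10, in 2 groups of 2 samples. Control cells were left untreated, and the other group received chaetocin at 50 nM for 24 h. Chaetocin, which fungi of the genus Chaetomium make, is known to inhibit SUV39H1, an enzyme that methylates histone H3. It was given in DMSO while the control cells received none, so an effect of the solvent and one of the drug cannot be told apart. The labels do not say whether the samples of a group came from separate cultures, and p-values therefore measure the spread between these samples only.

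DNA replication is prepared in G1 and carried out in S phase. The origin recognition complex, CDC6 and CDT1 load the ring of MCM2 to MCM7 on DNA, a step called licensing, and MCM10, CDC45 and the GINS complex then turn the ring into an active helicase. DNA polymerase alpha with its primase starts each strand, RFC loads the sliding clamp PCNA, polymerases epsilon and delta extend the strands, and FEN1 and LIG1 join the Okazaki fragments. Ribonucleotide reductase (RRM1 with RRM2), TYMS and TK1 supply deoxynucleotides, and CAF-1 places histones on the new DNA. Many of these genes are known targets of the E2F transcription factors.

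The libraries held between 21241984 and 32590479 counts, and the 38 genes together took between 0.360% and 0.491% of them. Mitochondrial transcripts took between 3.28% and 4.12%. Chaetocin replicate 2 had reads on 27748 genes, against 24174 to 24699 in the other 3 samples. All 5 markers of the glioblastoma line that were used (VIM, CD44, FN1, TNC and NES) were present. Their summed level was 14369 and 11563 normalized CPM (counts per 1000000 counts after TMM scaling) in the controls and 8703 and 5152 with chaetocin. For 4 of the 5 both chaetocin samples lay below both controls, against 26% of all genes tested. None of the 5 passed edgeR's test. DESeq2 called VIM, CD44 and FN1 as lower, against 2.95% of the genes it tested. Of 9 leukocyte markers, 3 had 0 reads in all samples, CD3E, MS4A1 and FCGR3A. SPI1 had 1 read, in chaetocin replicate 2. CD2 had 27 and 35 reads in the controls and, after chaetocin, 40 and 96, and CD14 had 7 and 11 and then 10 and 41. Neither CD2 nor CD14 passed edgeR's test. The summed level of the 9 lay between 20.6 and 36.8 normalized CPM in the 4 samples, most of it from CSF1R. PTPRC had 0 and 1 reads in the controls and, after chaetocin, 15 and 27, and ITGAM had 0 and 1 and then 24 and 29. Both genes passed the filter on low counts only through the chaetocin samples, so no test of them is given. The summed level of 4 endothelial markers lay between 11.6 and 18.6 normalized CPM, and none of them was at 0 in all samples. KDR was at 8.52 and 13.02 normalized CPM in the controls and, after chaetocin, at 5.28 and 5.46, and VWF at 0.574 and 1.15 and then at 1.93 and 2.67. Neither passed edgeR's test, and DESeq2 called KDR as lower. The part of these differences in the results below was not tested.

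One of the 38 genes rose with chaetocin past the threshold, *RRM2*, the small subunit of ribonucleotide reductase. Called means an adjusted p under 0.05 in edgeR's quasi-likelihood test across all genes. Thus 1 of 38 genes was called as higher, where 1.11% of all genes tested were, and 0 were called as lower, where 0.743% were. DESeq2's Wald test also called 1 of the 38, again *RRM2*, as higher, against 2.36% of the genes it tested, and 0 as lower, against 2.95%. At an unadjusted p under 0.05, 9 of the 38 genes were higher (23.7%), against 10.9% of all genes, and 0 were lower, against 9.43%.

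Most of the other genes lay slightly above the control level. A log2 fold change above 0 was found for 30 of the 38 genes (78.9%), against 50.9% of all genes tested. The median over the list was 0.20, which is 1.15-fold, and the median over all genes was 0.01. Both chaetocin samples lay above both control samples for 21 genes (55.3%), against 26.8% of all genes. Both lay below for 5 genes, *MCM4*, *GINS4*, *POLE2*, *RFC1* and *RFC5*, against 26% of all genes, and the groups overlapped for the remaining 12.

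Replicates of a group also differed from each other. Over the 38 genes, the median log2 difference of control replicate 2 to control replicate 1 was 0.11, and 28 of the genes were higher in control replicate 2. Against the mean of the controls, the median was 0.22 in chaetocin replicate 1 and 0.16 in chaetocin replicate 2. In bulk RNA, more cells in S phase and more RNA per cell cannot be told apart. By DNA staining of U87MG cells at a higher dose of chaetocin, the study reported fewer cells in S phase and more in G2/M. That dose was not used for the RNA.

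**Figure D1:**
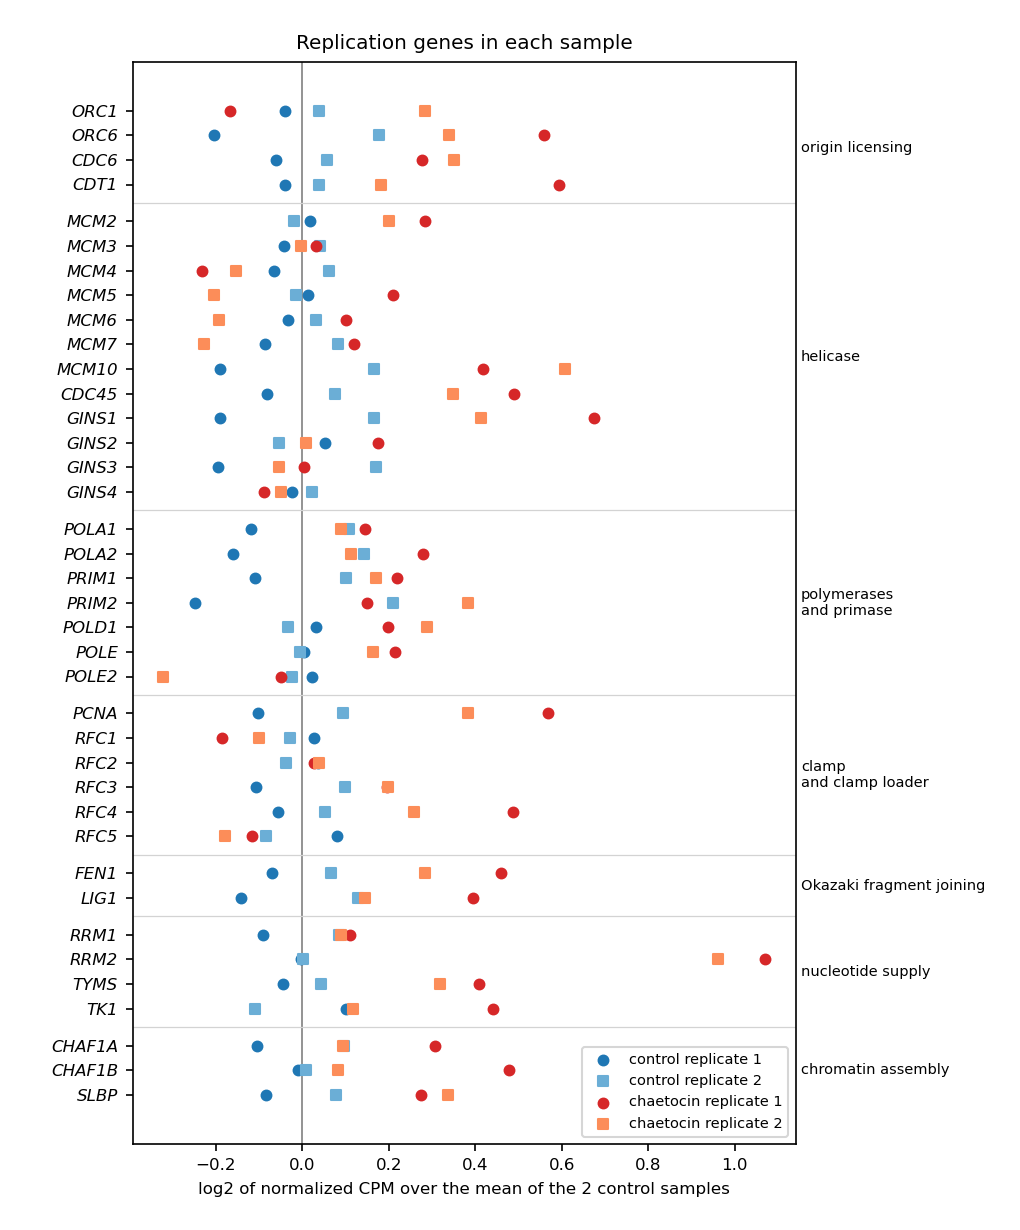
Log2 of normalized CPM in each sample over the mean of the 2 control samples (horizontal axis) for the 38 replication genes, grouped by role, with 1 point per sample. RRM2 is the gene whose chaetocin samples lie farthest to the right, and the points of MCM3, MCM5, MCM6, MCM7 and GINS3 overlap between the groups.

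The promoters of these genes share letters that the choice of the list did not use. RefSeq (GRCh38.p14) gave a promoter of 300 bases, 250 before the start and 50 after it, for 35 of the 38 genes. *MCM4*, *MCM5* and *GINS4* had none in the table used. Of several starts of a gene, the first listed was taken. An E2F site was searched as TTTCGCGC, TTTGGCGC, TTTCCCGC or TTTGCCGC on both strands. Matches on opposite strands can overlap. One or more of the 4 was found in 17 of 35 promoters (48.6%), against 5.17% of the promoters of 10987 tested genes and 3.33% of all 27305. It was found in 7 of 19 promoters of S-phase regulators (36.8%) and in 8 of 39 of other replication factors (20.5%).

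The 17 were the promoters of *CDC6*, *CDT1*, *MCM2*, *MCM3*, *MCM6*, *MCM7*, *GINS1*, *GINS2*, *GINS3*, *POLA1*, *POLA2*, *POLE*, *POLE2*, *PCNA*, *RFC3*, *LIG1* and *TYMS*. The letters CCAAT, bound by NF-Y, were found in 19 of 35 (54.3%), against 36.7% of tested genes. The CHR of mitotic genes, searched as TTTGAA or TTCGAA on both strands, was found in 2 of 35 (5.71%), against 11.6% of tested genes. In 31 promoters of mitosis genes the shares were 9.68% for E2F, 71.0% for CCAAT and 74.2% for the CHR. A match is a description of the letters and shows no binding.

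The stretches below belong to genes of licensing, the helicase, the polymerases, the clamp and nucleotide supply that are described further on, with *RRM2* shown as the called gene. Capitals mark the E2F letters, and in *RRM2* they mark CCAAT, since none of the E2F letters was found in its promoter. CCAAT is left unmarked in the other stretches. All lie before the start and are read 5′ to 3′ on the strand of the gene. The stretches are at chr16:88803744-88803771 (plus strand) for *CDT1*, chr6:52284899-52284926 (minus) for *MCM3* and chr2:135876512-135876605 (minus) for *MCM6*. They are at chr11:65261899-65261926 (plus) for *POLA2*, chr20:5126664-5126691 (minus) for *PCNA*, chr18:657604-657631 (plus) for *TYMS* and chr2:10122606-10122687 (plus) for *RRM2*.
CDT1: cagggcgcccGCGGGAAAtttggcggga
MCM3: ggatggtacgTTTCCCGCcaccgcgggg
MCM6: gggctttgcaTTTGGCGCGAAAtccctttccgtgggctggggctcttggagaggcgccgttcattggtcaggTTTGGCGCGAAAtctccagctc
POLA2: tggctcccggTTTCGCGCatgcgtgcac
PCNA: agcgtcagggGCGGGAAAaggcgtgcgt
TYMS: cgggacggccGCGGGAAAaggcgcgcgg
RRM2: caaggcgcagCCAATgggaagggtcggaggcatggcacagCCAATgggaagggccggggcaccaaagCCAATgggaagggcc

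*MCM6* held 4 matches, as 2 overlapping pairs on opposite strands, and *RRM2* held CCAAT at 3 places. CCAAT was not particular to *RRM2*: *MCM3* and *PCNA* also held it at 3 places, *MCM6* at 2, 1 of them on the opposite strand within the stretch shown, and *CDC45* and *CHAF1A* at 4. The median log2 fold change was 0.20 for the 17 genes with E2F letters and 0.28 for the 18 without. Among all tested genes with a promoter, it was 0.02 for the 568 with E2F letters and -0.02 for the 10417 without, and 2.29% and 1.05% of them were called as higher. For CCAAT, the median was 0.19 for the 19 genes with it and 0.27 for the 16 without, and 1.09% and 1.12% of all tested genes with and without it were called as higher.

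**Figure D2:**
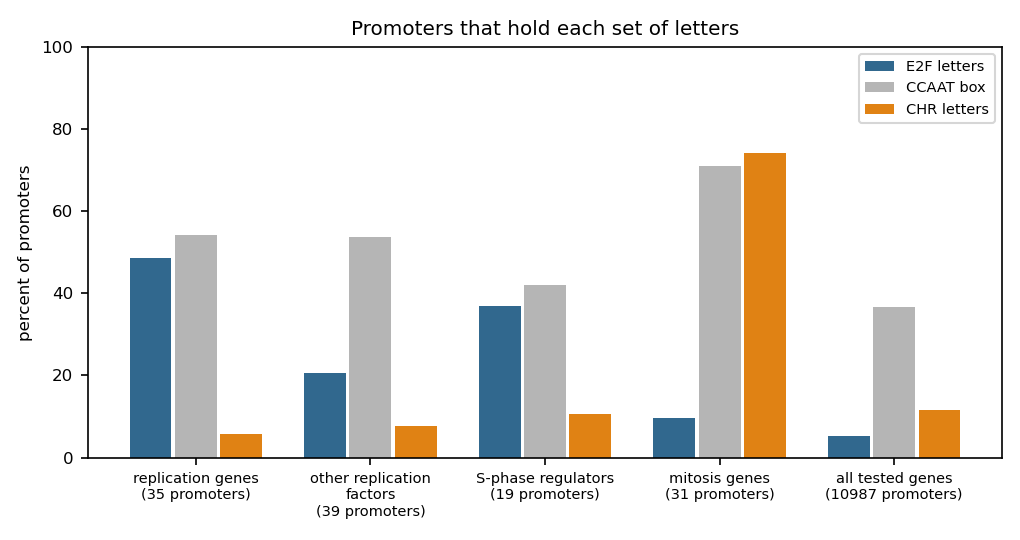
Percent of promoters (300 bases each) that hold E2F letters, a CCAAT box or CHR letters, for 4 gene lists and all tested genes. E2F letters were found in 48.6% of the replication genes' promoters and in 5.17% of those of all tested genes, and CHR letters in 74.2% of those of mitosis genes.

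Origin licensing was represented by *ORC1*, *ORC6*, *CDC6* and *CDT1*. None of the 4 passed the test, and their median log2 fold change was 0.36. *ORC6*, the smallest subunit of the origin recognition complex, was at 18.97 and 24.7 normalized CPM in the controls and, after chaetocin, at 32.2 and 27.6. *CDT1*, the loader that brings the MCM ring to the origin, was at 34.3 and 36.3 in the controls and, after chaetocin, at 53.3 and 40.1. *CDC6*, the ATPase that loads the ring together with CDT1, was at 99.2 and 107.5 in the controls and, after chaetocin, at 125 and 132.

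For these 3 genes both chaetocin samples were above both controls. *ORC6* had a log2 fold change of 0.45 (95% interval 0.02 to 0.88, adjusted p = 0.229). It was 0.40 for *CDT1* (-0.01 to 0.81, adjusted p = 0.254) and 0.31 for *CDC6* (-0.01 to 0.64, adjusted p = 0.258). *ORC1*, the largest subunit of the complex, had a log2 fold change of 0.08 (-0.34 to 0.50), and its chaetocin samples lay on either side of the controls.

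None of the 12 helicase genes passed the test, and their median log2 fold change was 0.02. *MCM2* to *MCM7* encode the ring itself. Their summed level was 1409 and 1482 normalized CPM in the controls and 1515 and 1362 with chaetocin, so that the groups overlapped. *MCM2* was at 229 and 223 normalized CPM in the controls and, after chaetocin, at 275 and 260, a log2 fold change of 0.24 (95% interval -0.10 to 0.58). It was the only gene of the 6 whose chaetocin samples both lay above the controls. *MCM4* was the one whose chaetocin samples both lay below, with a log2 fold change of -0.19 (-0.55 to 0.16).

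For *MCM5*, *MCM6* and *MCM7*, chaetocin replicate 1 lay above both controls and chaetocin replicate 2 below both, and for *MCM3* both lay between the controls. Log2 fold changes were 0.01 for *MCM3*, 0.02 for *MCM5*, -0.04 for *MCM6* and -0.04 for *MCM7*, and each of these signs turned under at least 1 other normalization, filter or test. The 95% intervals of these 4 genes lay between -0.44 and 0.41.

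Per length, the 6 ring genes stood at unequal levels. *MCM3* was the highest in all 4 samples, at 80.0 and 84.7 CPM per kb (normalized CPM per kilobase of the longest transcript) in the controls and, after chaetocin, at 84.2 and 82.2. *MCM5* was the lowest in all 4, at 33.7, 33.04, 38.6 and 28.97 CPM per kb in the same order. The ratio of the highest to the lowest was 2.38 and 2.56 in the controls and 2.18 and 2.84 with chaetocin, without a separation of the groups.

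Of the 6 factors that activate the ring, *MCM10*, *CDC45* and *GINS1* had log2 fold changes above those of the ring genes, with intervals that overlap theirs, and the other 3 did not exceed that of *MCM2*. *MCM10*, which is needed to start unwinding, was at 31.2 and 39.9 normalized CPM in the controls and, after chaetocin, at 47.5 and 54.1. *GINS1*, a subunit of the GINS complex, was at 16.9 and 21.6 in the controls and, after chaetocin, at 30.7 and 25.6. *CDC45*, the partner of GINS on the ring, was at 60.0 and 67.0 in the controls and, after chaetocin, at 89.1 and 80.8. In these 3 genes no chaetocin sample reached down to a control sample.

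In log2 the fold change was 0.52 for *MCM10* (95% interval 0.12 to 0.92, adjusted p = 0.152), 0.55 for *GINS1* (0.11 to 0.98, adjusted p = 0.163) and 0.42 for *CDC45* (0.08 to 0.76, adjusted p = 0.163). None passed the test. The other GINS subunits lay close to 0, with 0.09 for *GINS2*, -0.03 for *GINS3* and -0.07 for *GINS4*, and the signs of *GINS3* and *GINS4* turned under other scalings. Per length, *GINS1* was the lowest of the 4 subunits in both control samples, at 5.20 and 6.65 CPM per kb, and *GINS3* was the lowest in both chaetocin samples, at 8.17 and 7.84. *GINS2* was the highest in all 4 samples, between 18.7 and 21.9 CPM per kb.

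The polymerase and primase genes had small differences of one sign, apart from *POLE2*. Of 7 genes, 6 had a log2 fold change above 0, the median was 0.19, and none passed the test. *POLD1*, the catalytic subunit of polymerase delta, was at 35.8 and 34.2 normalized CPM in the controls and, after chaetocin, at 40.2 and 42.8, a log2 fold change of 0.24 (adjusted p = 0.392). *POLE*, the catalytic subunit of polymerase epsilon, was at 83.3 and 82.9 in the controls and, after chaetocin, at 96.5 and 93.1, a log2 fold change of 0.19 (adjusted p = 0.477). The controls of both genes differed little, and both chaetocin samples were higher.

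*POLA1* and *POLA2*, which encode subunits of polymerase alpha, had log2 fold changes of 0.12 and 0.20. *PRIM1* and *PRIM2*, the primase subunits, had 0.19 and 0.27. *POLE2*, the second subunit of polymerase epsilon, had -0.18 (95% interval -0.70 to 0.34) and was the least abundant of the 38 genes, at 151 to 204 reads a sample.

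*PCNA*, the sliding clamp that holds the polymerases on DNA, was at 165 and 189 normalized CPM in the controls and, after chaetocin, at 263 and 231. The log2 fold change was 0.48 (95% interval 0.11 to 0.84, adjusted p = 0.146), which did not pass the test, and the groups did not overlap. Among the genes of the clamp loader, *RFC4* was at 75.9 and 81.8 in the controls and, after chaetocin, at 110.6 and 94.3. Its log2 fold change was 0.38 (0.03 to 0.72, adjusted p = 0.21).

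The other subunits of the loader had smaller values or values below 0. Log2 fold changes were 0.20 for *RFC3*, 0.03 for *RFC2*, -0.14 for *RFC1* and -0.15 for *RFC5*, and for *RFC1* and *RFC5* both chaetocin samples lay below both controls. Per length, *RFC4* was the highest of *RFC2* to *RFC5* in each sample, and the ratio of the highest to the lowest was 2.02 and 2.39 in the controls and 3.31 and 2.94 with chaetocin. The level of *PCNA* per length was 3.34 and 3.98 times that of *RFC1* in the controls and 6.16 and 5.11 times with chaetocin.

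Both genes that join Okazaki fragments lay above the controls in both chaetocin samples. *FEN1*, the flap endonuclease, was at 81.5 and 89.5 normalized CPM in the controls and, after chaetocin, at 118 and 104, a log2 fold change of 0.37 (95% interval 0.04 to 0.71, adjusted p = 0.206). *LIG1*, the replicative DNA ligase, was at 22.004 and 26.5 in the controls and, after chaetocin, at 31.9 and 26.9, a log2 fold change of 0.27 (adjusted p = 0.427). For *LIG1* the lower chaetocin sample was nearly level with the higher control.

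Of the 4 genes of nucleotide supply, *RRM2* was the one that passed the test, and the median log2 fold change of the 4 was 0.33. *RRM2* was at 322 and 323 normalized CPM in the controls and, after chaetocin, at 678 and 628, and the controls were nearly identical. It rose 2.02-fold, which in log2 is 1.02 (standard error 0.16, 95% interval 0.64 to 1.39, adjusted p = 0.0311). Its raw counts were 7860 and 9284 without the drug, against 14747 and 22321 with it. By p-value *RRM2* ranked 115 of the 16416 genes, and by log2 fold change 1151.

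The call rests on having 2 control samples in the fit. Without control replicate 1 the adjusted p of *RRM2* was 0.0993, and without control replicate 2 it was 0.145, at log2 fold changes close to the one above. Without chaetocin replicate 1 or 2 it stayed called. With 1 sample left out, the log2 fold change of *RRM2* lay between 0.96 and 1.06. Which other genes of the 38 passed the threshold also depended on the chaetocin sample left out.

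The partner of RRM2 did not pass the test. *RRM1*, the large subunit of ribonucleotide reductase, was at 241 and 272 normalized CPM in the controls and, after chaetocin, at 277 and 273, a log2 fold change of 0.10 (95% interval -0.25 to 0.45). Per length, the level of *RRM2* was 1.15 and 1.02 times that of *RRM1* in the controls and 2.11 and 1.98 times with chaetocin. Against *RRM2B*, the alternative small subunit that p53 controls, it was 6.18 and 6.16 times as high in the controls and 10.1 and 8.63 times with chaetocin. *RRM2B* itself was at 69.9 and 70.4 normalized CPM in the controls and, after chaetocin, at 90.1 and 97.8. Its log2 fold change was 0.42 (0.10 to 0.74, adjusted p = 0.147), which did not pass the test. *RRM2* alone made up 8.43% and 7.99% of the summed level of the 38 genes in the controls and 14.2% and 14.1% with chaetocin.

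*TYMS*, which makes thymidylate from deoxyuridylate, was at 51.0 and 54.2 normalized CPM in the controls and, after chaetocin, at 69.8 and 65.6, a log2 fold change of 0.36 (0.04 to 0.69, adjusted p = 0.205). *TK1*, the thymidine kinase of S-phase cells, was at 129 and 112 in the controls and, after chaetocin, at 164 and 131, a log2 fold change of 0.29 (-0.10 to 0.67, adjusted p = 0.374). Neither passed the test. For *TK1* the lower chaetocin sample was only just above the higher control.

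**Figure D3:**
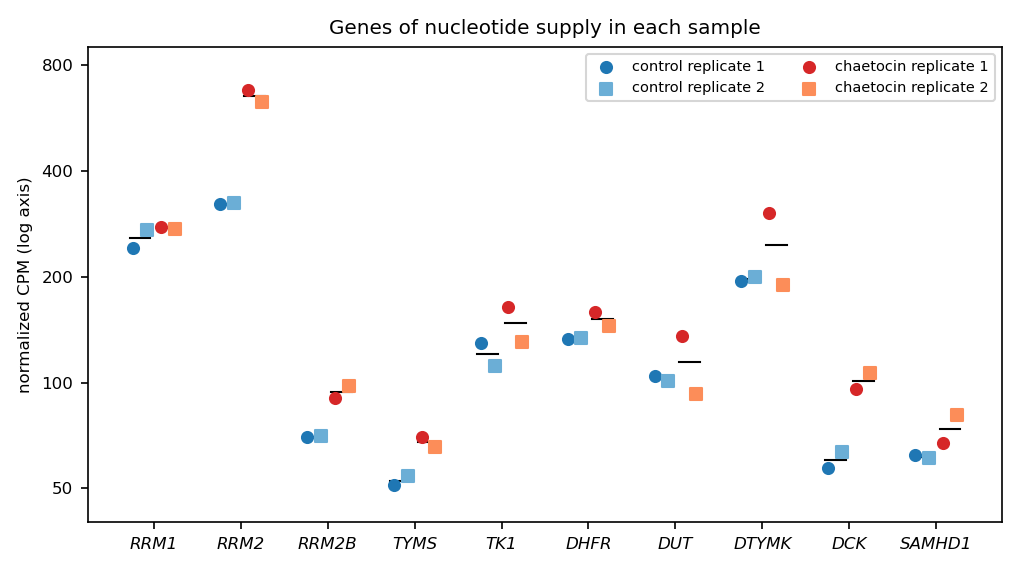
Normalized CPM in each sample (log axis) for 10 genes of nucleotide supply, with black bars at the mean of each group. RRM2 moves from 322 and 323 to 678 and 628 and DCK from 57.2 and 63.4 to 95.8 and 107, while the samples of RRM1 stay between 241 and 277.

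In chromatin assembly none of the 3 genes passed the test, and the median log2 fold change was 0.29. *SLBP*, which binds the stem-loop of histone mRNAs, was at 134 and 150 normalized CPM in the controls and, after chaetocin, at 172 and 179 (log2 fold change 0.31, adjusted p = 0.284). *CHAF1B*, a subunit of CAF-1, was at 57.0 and 57.7 in the controls and, after chaetocin, at 79.9 and 60.7 (log2 fold change 0.29, adjusted p = 0.371). The difference of *CHAF1B* came mostly from chaetocin replicate 1. *CHAF1A*, the largest subunit of CAF-1, had a log2 fold change of 0.20, and its groups overlapped.

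**Figure D4:**
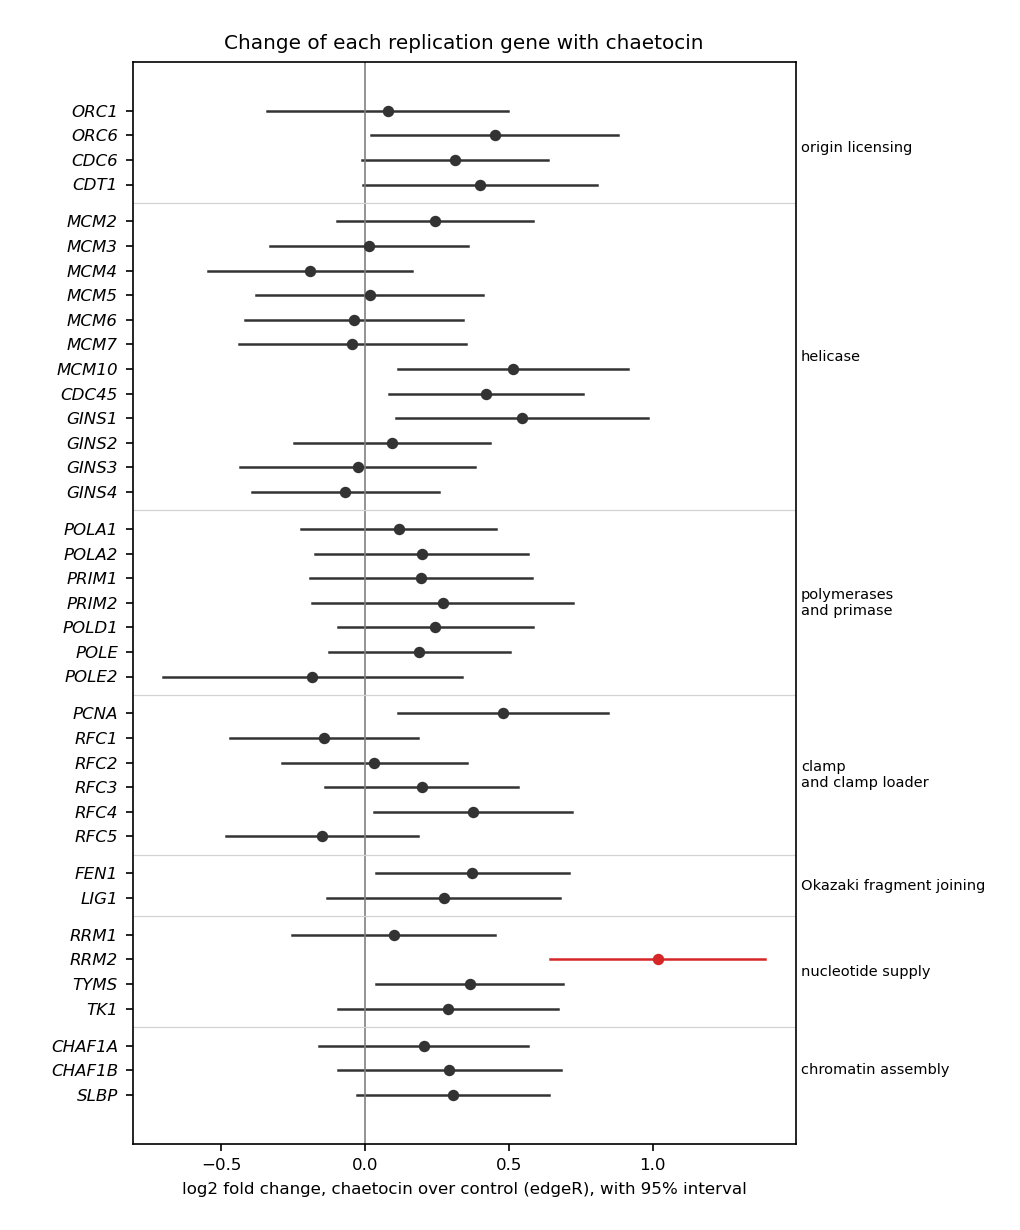
Log2 fold change of chaetocin over control (points) with its 95% interval (lines) from edgeR for the 38 genes, grouped by role, with the called gene in red. RRM2 at 1.02 is the gene called, the intervals of 8 further genes lie above 0, and MCM3 to MCM7 lie around 0.

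Reads of other genes could enter some of these values. Of 11 pseudogenes named after the members, none had more than 3 reads in a sample. The exons of 10 members share bases with those of a gene that had at least 100 reads in a sample. The longest such stretch is 967 bases of *TYMS* with *ENOSF1* on the opposite strand, with 1013 and 1227 reads without the drug and 803 and 1098 with it. Whether the authors counted by strand is not given in the sources used here.

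Other genes of replication, from a list of 50 factors of which 49 could be matched, gave 2 called as higher (4.08%, against 1.11% of all genes tested) and 0 as lower (against 0.743%), with a median log2 fold change of 0.11. DESeq2 called 5 as higher, against 2.36% of all genes, and 1 as lower, against 2.95%. *RECQL4*, a helicase of replication initiation, was at 29.7 and 31.7 normalized CPM in the controls and, after chaetocin, at 60.2 and 51.1, a log2 fold change of 0.86 (adjusted p = 0.0399). *DCK*, the kinase that salvages deoxycytidine, was at 57.2 and 63.4 in the controls and, after chaetocin, at 95.8 and 107, a log2 fold change of 0.75 (adjusted p = 0.0488). *ASF1B*, a histone chaperone, had 0.66 and did not pass (adjusted p = 0.0589). DESeq2 called these 3 genes and *TICRR*, which acts in origin firing, and *CLSPN*, an adaptor of the replication checkpoint, as higher. The gene it called as lower was *TOP1*, the topoisomerase that relaxes DNA ahead of the fork, at 297 and 331 normalized CPM in the controls and, after chaetocin, at 222 and 173. Its log2 fold change in edgeR was -0.67 and did not pass (adjusted p = 0.0895).

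By role, the 13 further genes of licensing and firing had a median log2 fold change of 0.33, and the 20 accessory genes of the fork and the polymerases had -0.02. The 9 further genes of nucleotide supply had a median of 0.18. The 7 further genes of chromatin assembly had a median of -0.09, and 4 of these 7 lay below 0. The translesion polymerases, which copy damaged DNA, had a median of 0.15. Of these 8 genes 0 were called, against 1.11% of all genes as higher and 0.743% as lower. The genes of smallest p among them were *PRIMPOL* (0.40), *POLH* (0.34) and *POLQ* (0.37), each as a log2 fold change.

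The regulators of S phase held 3 called genes of 24, all higher (12.5%, against 1.11% of all genes), and 0 were lower, against 0.743%. DESeq2 called these and *E2F8* as higher, which was at an adjusted p of 0.0584 in edgeR. *E2F1*, the transcription factor that activates many replication genes, rose from 166 and 175 normalized CPM in the control samples to 345 and 315 with chaetocin, a log2 fold change of 0.95 (adjusted p = 0.0311). *E2F2*, of the same class, rose from 9.18 and 12.4 to 23.5 and 29.8, a log2 fold change of 1.30 (adjusted p = 0.0338). *CCNE1*, the cyclin E that drives CDK2 at the entry into S phase, rose from 10.8 and 11.5 to 26.1 and 24.5, a log2 fold change of 1.18 (adjusted p = 0.0279). Groups did not overlap for any of these 3 genes. The median over the 24 genes was 0.27, with 15 above 0 and 9 below. For 12 of the 24 (50%) both chaetocin samples lay above both controls, against 26.8% of all genes. For 4 of the 24 both lay below, against 26% of all genes. Among them was *CCND1*, the cyclin D1 of G1, at 555 and 639 normalized CPM in the controls and, after chaetocin, at 479 and 295, with a log2 fold change of -0.63 (adjusted p = 0.199). Another was *E2F7*, of the same family as *E2F8*, with -0.39 (adjusted p = 0.229). Neither passed the test.

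Among 36 mitosis genes, all had a log2 fold change above 0, with a median of 0.34, where 50.9% of all genes tested had one above 0. Of the 36, 1 was called as higher (2.78%, against 1.11% of all genes). This was *NUSAP1*, a spindle protein, with 0.96 (adjusted p = 0.0297). *NDC80* of the kinetochore had 0.69 (adjusted p = 0.0562) and the mitotic kinase *CDK1* had 0.66 (adjusted p = 0.0634), neither of which passed in edgeR. DESeq2 called 4 of the 36 as higher, against 2.36% of all genes, and 0 as lower, against 2.95%. The 4 were these 3 genes and *CDC25C*. The differences between the medians of these lists were not tested, and all lists rest on the same 4 samples.

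**Figure D5:**
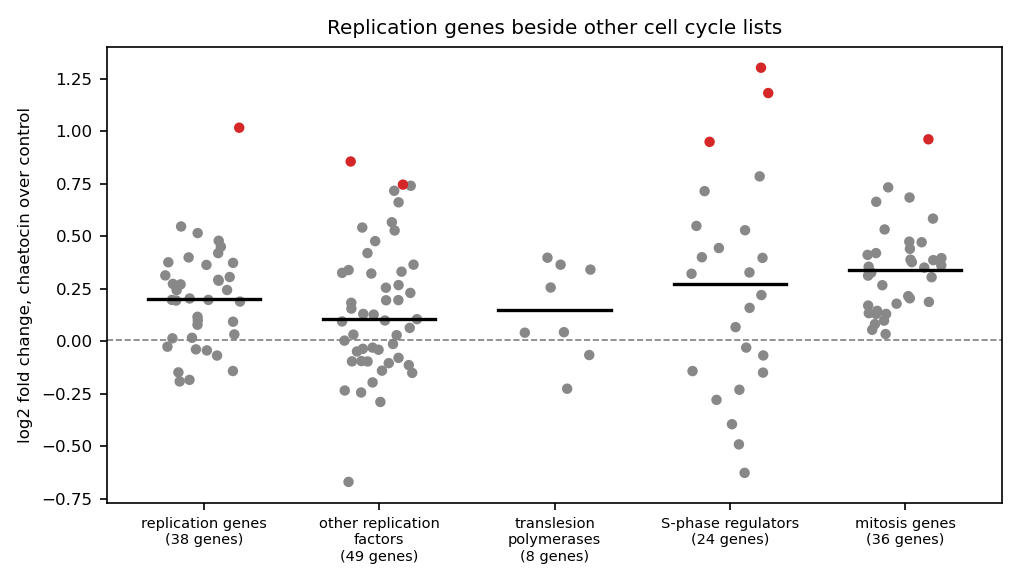
Log2 fold change of chaetocin over control for each gene of 5 lists (points, called genes in red), with black bars at the list medians and a dashed line at the median of all tested genes. The medians are 0.20 for the replication genes, 0.11, 0.15 and 0.27 for the next 3 lists and 0.34 for the mitosis genes, and the highest points are E2F2 and CCNE1.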

How the data were processed

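RNA was measured in 2 untreated and 2 chaetocin-treated samples of U87MG cells by sequencing of polyadenylated RNA in single-end reads of 50 bp. The authors deposited raw counts per gene for each sample, without normalization. The submitters' processing notes name cutadapt, TopHat, TopHat2 and SAMtools and the build GRCh37, and the counting program is not given in the sources used here. The study's methods name DESeq2.

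Here, genes were filtered with filterByExpr (minimum count 10), scaled by TMM (factors 0.942, 0.948, 1.03 and 1.09) and tested with edgeR 4.0.16 in R 4.3.3, by the quasi-likelihood test with a robust fit, no block and Benjamini-Hochberg adjustment at 0.05. Intervals use the standard error from the F statistic. The common dispersion corresponded to a coefficient of variation of 16.8%. DESeq2 1.42.0, other size factors, other filters, downsampling, a replicate block and leaving out each sample were alternatives. Symbols and lengths came from GENCODE release 29, which held 52338 of 57905 identifiers. Depth was 21241984 to 32590479 counts, where 3 counts are 0.0921 to 0.141 CPM and cover counting error only. UHRF1 and PECAM1 could not be matched to an identifier and are not reported here, nor are 2 further marker genes.

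The 38 genes and all lists were chosen with earlier results of these data known. All 38 are named, with values in every sample for called genes, for the 2 genes of smallest p in each of 7 roles and for *MCM2*, *CDC6*, *PCNA*, *RRM2* and *TK1*. From each other list the 3 genes of smallest p are named. Sample values of *CDC45*, *RRM1*, *RRM2B*, *MCM3*, *MCM5* and the GINS genes and the names of *TICRR*, *CLSPN*, *TOP1*, *E2F7*, *E2F8*, *CCND1* and *CDC25C*, were added after their values were seen.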

Additional observations from a re-analysis of the deposited data

How the results depend on the processing

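Of 266 log2 fold changes of the 38 genes under alternatives that kept all samples, 254 kept their direction and side of the threshold, 3 passed it and 9 turned sign, all near 0. Those that turned were 0.038 for *MCM6*, 0.033 for *MCM7*, 0.053 for *GINS3* and 0.0092 for *GINS4* with upper-quartile factors, -0.0057 for *MCM3* and -0.0034 for *MCM5* without a filter on low counts, -0.0020 for *MCM3* and -8.4e-05 for *MCM5* with DESeq2, and 0.013 for *GINS3* after downsampling to the smallest library. With upper-quartile factors, which moved the median of all genes to 0.08, the median log2 fold change was 0.28 for the 38 genes, 0.43 for licensing, 0.19 for the clamp and its loader and 0.18 for the other replication factors. For the clamp and its loader it was 0.0952 without a filter, 0.137 when every sample had to hold 10 counts or more and 0.0988 with DESeq2.

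Counts of called genes moved more. Over all genes, 787 were higher and 759 lower without a filter, 114 and 80 when every sample had to hold 10 counts or more, 385 and 481 with DESeq2, and 1791 and 1548 at an unadjusted p under 0.05, where 9 of the 38 were higher. The replicate numbers pair nothing that the labels name, and the deviations of same-numbered samples had a correlation of 0.191. A fit with a replicate block called 1036 of 16416 genes as higher and 1053 as lower. Of the 38, 4 were called, all as higher, *GINS1* (adjusted p = 0.0385), *MCM10* (0.0265), *PCNA* (0.0479) and *RRM2*. It also called 7 of the 49 other replication factors as higher and 1 as lower. Of the 24 S-phase regulators it called 7 as higher and 1, *CCND1*, as lower (adjusted p = 0.0283). Of the 36 mitosis genes it called 7 as higher and 0 as lower.

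With 1 sample left out, the lone sample is assumed to vary like the other group. The called genes numbered 215 to 1332 higher and 97 to 1673 lower over all genes, and 0 to 8 of the 38. *RRM2* lost its call without either control, and of 152 values 132 kept direction and side. The median log2 fold change ranged from 0.11 to 0.26 for the 38 genes, 0.25 to 0.41 for licensing, -0.023 to 0.14 for the helicase, 0.048 to 0.22 for the polymerases, 0.071 to 0.14 for the clamp and its loader, 0.10 to 0.30 for chromatin assembly, 0.052 to 0.14 for the other replication factors, 0.0059 to 0.23 for translesion polymerases and 0.15 to 0.34 for the S-phase regulators. Of 30 genes whose sign held, 16 moved by over 1.5 times, *CDT1* (0.18 to 0.58), *ORC6* (0.26 to 0.65), *MCM10* (0.34 to 0.69), *GINS2* (0.012 to 0.17), *GINS4* (-0.10 to -0.045), *POLA2* (0.041 to 0.35), *PRIM1* (0.080 to 0.29), *PRIM2* (0.048 to 0.51), *POLE2* (-0.32 to -0.056), *RFC3* (0.085 to 0.29), *RFC5* (-0.24 to -0.077), *LIG1* (0.13 to 0.41), *RRM1* (0.0022 to 0.18), *TK1* (0.12 to 0.43), *CHAF1A* (0.095 to 0.30) and *CHAF1B* (0.086 to 0.47). Signs turned for *ORC1* (-0.17 to 0.29), *MCM3* (-0.040 to 0.046), *MCM5* (-0.20 to 0.20), *MCM6* (-0.19 to 0.093), *MCM7* (-0.22 to 0.11), *GINS3* (-0.21 to 0.16), *POLA1* (-0.0047 to 0.22) and *RFC2* (-0.014 to 0.057). What causes the differences between settings was not tested. With 2 samples a group the intervals are wide, as for *RRM1* (-0.25 to 0.45 in log2), and smaller differences were not detectable here.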
